A study of Mus musculus with 6 samples.

Results

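The Frizzled genes encode the receptors to which Wnt proteins bind, and all 10 mouse members (Fzd1 to Fzd10) were found by gene symbol among the 57010 genes of a table of skin RNA levels. The comparison is between 2 groups of 3 libraries each. MOD libraries came from mice treated for 6 consecutive days with 62.5 mg of imiquimod per day on dorsal skin that had been shaved. Imiquimod activates Toll-like receptors and is used to model psoriasis. CON libraries came from control mice whose source is labelled wild type. The design text gives an atropine and a zoledronic acid injection at the end of the experiment without separating the groups. The sources used here do not state strain, sex, age, or whether control skin was shaved or given a vehicle. Values are TPM, a measure of transcript abundance that divides reads by gene length and scales each library to the same total. Levels can be set side by side between genes, and between libraries only as parts of that total.

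A Frizzled protein carries an outward-facing cysteine-rich domain that holds the lipid of a Wnt ligand, a bundle of membrane-spanning helices, and an inner tail that recruits Dishevelled. With the co-receptors Lrp5 and Lrp6 it stabilizes beta-catenin, which turns on target genes together with TCF and LEF factors. Other Frizzled receptors act without beta-catenin, and in skin Fzd6 is known for setting the common direction in which hairs lie. Wnt signals through beta-catenin are needed for hair follicles to form and to enter their growth phase. By sequence the family falls into the groups Fzd1, Fzd2 and Fzd7, Fzd5 and Fzd8, Fzd4, Fzd9 and Fzd10, and Fzd3 and Fzd6, and the results are given in that order.

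The libraries listed 23311 to 23686 genes above 0 in MOD and 23771 to 24647 in CON, and depth is unknown because TPM keeps none. The basal keratin genes Krt14 and Krt5 were abundant in all 6 libraries, at 3022 to 3057 and 1507 to 1730 TPM in MOD, against 1132 to 1906 and 1264 to 1972 TPM in CON, as skin should have. The controls differed among themselves. H2-Ea, an MHC class II gene, was listed at 0 in MOD and in CON 2, but at 194 and 162 TPM in CON 1 and CON 3. The sources used here do not explain this split. No MOD library was on the side of CON 1 and CON 3, so for these controls the split and the treatment cannot be told apart. A fit with a term for this split, in which the difference is that between MOD and CON 2, is therefore given where it ends the call of a named gene or moves the count of a list by over 1.5 times. Scaling also differed between the groups: the median log2 difference of all 15323 tested genes was -0.31, and 0.00 after median-of-ratios scaling.

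Frizzled mRNA as a whole was lower in MOD skin, and its make-up was different. Of the 10 members 7 fell (Fzd1, Fzd2, Fzd3, Fzd5, Fzd6, Fzd7 and Fzd10), 1 rose (Fzd9) and 2 did not pass the test (Fzd4 and Fzd8; limma on log2(TPM + 1), adjusted p below 0.05). Among all tested genes 36.1% were called lower and 12.5% higher. The median difference of the members was -1.01, or -0.71 after median-of-ratios scaling, where 5 fell and 1 rose against 18.7% and 20.2% of all genes. Under quantile normalization 5 fell and 1 rose (all genes 20.7% and 18.4%), and with the H2-Ea term 6 fell and 0 rose by limma, 1 at an unadjusted p below 0.05 (all genes 17.9% and 4.35%). All 10 members met the filter of at least 1 TPM in at least 3 libraries. Fzd3 met it mainly through CON and Fzd9 mainly through MOD. Groups did not overlap for 8 members on the lower side, Fzd8 among them, and for Fzd9 on the higher side, against 44.0% and 15.5% of all tested genes (59.5% in either direction). These are mRNA levels in whole skin, in which fewer cells of a type and less RNA per cell cannot be told apart.

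**Figure D1:**
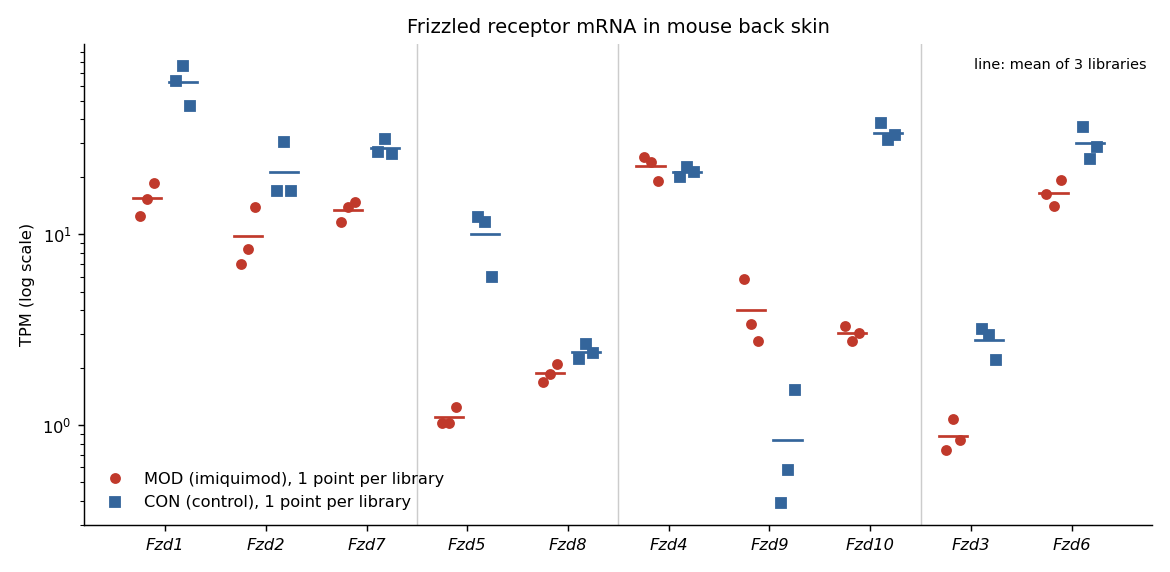
TPM of each Frizzled gene on a log axis, with 1 point per library for MOD (red circles) and CON (blue squares) and a line at each mean; grey lines part the sequence groups. Fzd10 and Fzd5 show the widest gaps, Fzd9 is the gene whose MOD points all lie above CON, and the Fzd4 points overlap.

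The summed TPM of the family was 85.1, 85.6 and 95.4 in MOD 1 to 3, against 220, 234 and 185 in CON 1 to 3. The MOD sum was 88.7 ± 5.80 and the CON sum 213 ± 25.1 (SD, n = 3 each), 2.40-fold lower in MOD. Without Fzd1 and Fzd10, which lost the most TPM, the sums were 70.3 ± 3.24 in MOD and 117 ± 10.9 in CON, 1.66-fold lower. These sums are of the deposited TPM and depend on how libraries are scaled. The median-of-ratios factors, by which TPM is divided, were 0.83 to 0.92 in MOD and 1.10 to 1.20 in CON, which would narrow the gap. Shares within the family sum do not depend on scaling. Fzd4 made up 26.0 ± 5.27% of the sum in MOD and 10.1 ± 1.25% in CON, Fzd1 17.3 ± 2.44% and 29.0 ± 3.54%, and Fzd10 3.41 ± 0.391% and 16.1 ± 2.46%. The shares of Fzd4, Fzd8 and Fzd9 were higher in every MOD library than in any CON library, those of Fzd1, Fzd5 and Fzd10 were lower in every one, and those of Fzd2, Fzd3, Fzd6 and Fzd7 overlapped. Fzd6 made up 18.5 ± 1.93% in MOD and 14.2 ± 3.18% in CON, and Fzd7 15.1 ± 1.38% and 13.3 ± 1.03%. Fzd6 and Fzd7, which fell in TPM, thus had shares that overlapped between the groups.

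**Figure D2:**
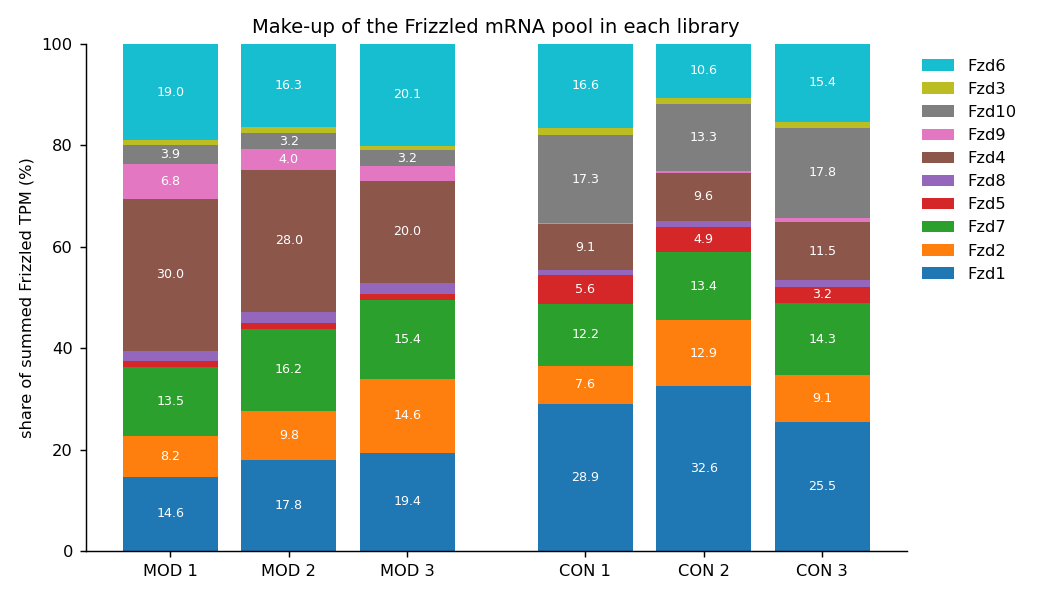
Share of each gene in the summed Frizzled TPM, in percent, 1 stacked bar per library, MOD on the left; shares of at least 3% are printed. Fzd4 takes 20.03 to 29.98% of the MOD bars and 9.1 to 11.5% of the CON bars, while Fzd10 shrinks to 3.2 to 3.9% against 13.3 to 17.8%.

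The order of the members by mean TPM differed between the groups. In MOD, Fzd4 led at 22.9 TPM, followed by Fzd6 at 16.4, Fzd1 at 15.4, Fzd7 at 13.4 and Fzd2 at 9.75 TPM, and each of these overlapped its neighbour in range. Then came Fzd9 at 3.99 and Fzd10 at 3.02 TPM, which overlapped, Fzd8 at 1.87 TPM, which overlapped neither neighbour, and Fzd5 at 1.10 and Fzd3 at 0.880 TPM, which overlapped. In CON, Fzd1 led at 62.4 TPM and lay above the next gene, Fzd10 (34.1 TPM), in all 3 libraries with no overlap of ranges. Fzd10, Fzd6 (29.9 TPM), Fzd7 (28.3 TPM) and Fzd2 (21.3 TPM) each overlapped the next gene in this order, the last of them Fzd4 (21.2 TPM). Fzd5 at 9.97 TPM stood clear of both neighbours, Fzd3 at 2.77 and Fzd8 at 2.42 TPM overlapped, and Fzd9 was last at 0.830 TPM.

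Fzd1, the most abundant Frizzled gene of control skin and a receptor that can signal through beta-catenin, stood at 12.4, 15.3 and 18.5 TPM in MOD 1 to 3, against 63.7, 76.2 and 47.2 TPM in CON 1 to 3. The lowest control was thus well above the highest imiquimod library. It fell 4.05-fold in mean TPM (log2 difference -1.94, SE 0.22, limma adjusted p = 0.0016). Fzd7, a close relative known from stem and progenitor cells of several epithelia, stood at 11.5, 13.9 and 14.7 TPM in MOD, against 26.9, 31.5 and 26.4 TPM in CON. Both groups were tight, and it fell 2.11-fold (log2 difference -1.03, SE 0.15, limma adjusted p = 0.0029). Fzd2, which takes part in Wnt5a signalling without beta-catenin, stood at 6.95, 8.37 and 13.9 TPM in MOD, against 16.8, 30.2 and 16.9 TPM in CON. MOD 3 was close to CON 1 and CON 3, and the spread within both groups was wide for its size. Fzd2 fell 2.18-fold (log2 difference -1.05, SE 0.32, limma adjusted p = 0.031). Its call did not hold when CON 2 (-0.78, adjusted p = 0.070), MOD 1 (-0.86, adjusted p = 0.10) or MOD 2 (-0.98, adjusted p = 0.089) was left out, and over all alternatives its adjusted p ran from 0.020 to 0.10. It was lost as well under median-of-ratios scaling (-0.72, adjusted p = 0.081), where Fzd1 (-1.60) and Fzd7 (-0.69) kept theirs.

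Fzd5, needed in mice for blood vessels of the yolk sac and for Paneth cells of the gut, stood at 1.02, 1.03 and 1.24 TPM in MOD 1 to 3, against 12.4, 11.6 and 5.99 TPM in CON 1 to 3. The MOD libraries were nearly equal, and CON 3 was the lowest control by a wide margin. Fzd5 fell 9.09-fold in mean TPM (log2 difference -2.33, SE 0.27, limma adjusted p = 0.0017). Fzd8, its nearest relative by sequence, was low in both groups, at 1.69, 1.84 and 2.08 TPM in MOD and 2.23, 2.65 and 2.39 TPM in CON. The groups did not overlap, but the gap was small and did not pass (log2 difference -0.25, 95% interval -0.62 to 0.11, limma adjusted p = 0.21). Fzd8 lay close to the median of all tested genes, 0.05 above it on the log2 scale, and its difference was -0.01 under median-of-ratios scaling. The gene Gm38058, annotated in GENCODE M21 as overlapping Fzd5 on the opposite strand, was listed at no more than 0.03 TPM in any library. Since the strandedness of the counting is not given in the sources used here, reads of the shared stretch cannot be assigned to a strand.

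Fzd10, known from limb buds and neural tissue of embryos, showed the largest fall of the members. It stood at 3.29, 2.75 and 3.02 TPM in MOD 1 to 3, against 38.1, 31.1 and 32.9 TPM in CON 1 to 3. Spread within each group was small beside the gap. The fall was 11.3-fold in mean TPM (log2 difference -3.12, SE 0.14, limma adjusted p = 0.00024), and 1.1% of tested genes had a lower difference. Fzd9, placed in the same sequence group and known in mice from bone formation and from muscle cells, where it limits the clustering of acetylcholine receptors, went the other way. It stood at 5.82, 3.40 and 2.75 TPM in MOD, against 0.39, 0.58 and 1.52 TPM in CON. MOD 1 was the highest library, CON 3 the highest control, and the groups did not overlap. Fzd9 rose 4.81-fold in mean TPM (log2 difference 1.45, SE 0.32, limma adjusted p = 0.010). CON 3 made up most of the control mean: without it the means were 3.99 TPM in MOD and 0.485 TPM in CON, 8.23-fold higher in MOD (1.70, adjusted p = 0.0078). The log2 difference was 2.26 with a pseudocount of 0.1. The call was lost when H2-Ea was a term (1.61, adjusted p = 0.054, the highest over its alternatives, from 0.0078). Fzd4, the receptor of Norrin in retinal blood vessels and a receptor of Wnt ligands elsewhere, stood at 25.5, 24.0 and 19.1 TPM in MOD, against 19.99, 22.5 and 21.2 TPM in CON. MOD 3 lay below all controls and the other MOD libraries above them. Its difference was 0.09 (95% interval -0.26 to 0.44, limma adjusted p = 0.62). It was 0.43 under median-of-ratios scaling (adjusted p = 0.070).

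The stretches before the start sites of the members with the largest falls and of the 1 that rose are shown, since these genes moved furthest. RefSeq promoter sequences on GRCm38.p6, a build earlier than the GRCm39 of the deposited data, were matched by symbol for 6 of the 10 members. Each is the 250 bases upstream of the annotated start, 5′ to 3′, at chr5:128600856-128601105, plus strand for Fzd10, chr1:64737751-64738000, minus strand for Fzd5, chr5:4758217-4758466, minus strand for Fzd1 and chr5:135251048-135251297, minus strand for Fzd9. Capitals mark matches to GGGCGG (GC box), CCAAT and TATAAA on either strand.
Fzd10: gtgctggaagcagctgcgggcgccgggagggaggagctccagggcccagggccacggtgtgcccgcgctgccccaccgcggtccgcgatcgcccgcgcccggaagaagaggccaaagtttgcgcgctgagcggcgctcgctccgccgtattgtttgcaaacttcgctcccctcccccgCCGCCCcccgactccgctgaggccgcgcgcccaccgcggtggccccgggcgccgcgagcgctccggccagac
Fzd5: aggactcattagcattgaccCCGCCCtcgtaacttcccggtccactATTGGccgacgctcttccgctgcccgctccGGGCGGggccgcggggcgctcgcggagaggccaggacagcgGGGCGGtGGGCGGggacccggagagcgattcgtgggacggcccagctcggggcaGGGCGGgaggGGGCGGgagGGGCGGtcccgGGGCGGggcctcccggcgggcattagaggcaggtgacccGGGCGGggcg
Fzd1: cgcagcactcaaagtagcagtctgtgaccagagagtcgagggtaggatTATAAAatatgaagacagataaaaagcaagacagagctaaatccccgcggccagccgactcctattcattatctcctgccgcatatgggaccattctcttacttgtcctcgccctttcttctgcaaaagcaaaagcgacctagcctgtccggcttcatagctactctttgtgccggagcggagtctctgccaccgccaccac
Fzd9: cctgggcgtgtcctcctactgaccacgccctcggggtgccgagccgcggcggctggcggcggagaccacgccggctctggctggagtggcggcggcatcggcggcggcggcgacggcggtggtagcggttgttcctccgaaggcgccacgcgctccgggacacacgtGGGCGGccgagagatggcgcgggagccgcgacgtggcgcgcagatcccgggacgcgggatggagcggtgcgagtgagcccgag

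The Fzd10, Fzd5 and Fzd9 stretches were rich in G and C (76.4% in each, against a median of 52.4% over 32851 promoters of the same length), and Fzd1 was not (51.2%). They held 37, 32 and 42 CG pairs, against a median of 6, and 97.8, 95.4 and 99.1% of promoters held fewer. GGGCGG on either strand occurred 9 times in Fzd5, once in Fzd10 and once in Fzd9 and not in Fzd1, and was found in 32.7% of all promoters. Fzd5 also held CCAAT (33.8% of promoters), and Fzd1 held TATAAA (12.4% of promoters). The TCF/LEF letters CTTTGAT (3.2% of promoters) and CTTTGTT (5.0%), and the STAT letters TTCNNNGAA (7.0%), searched on both strands, did not occur in these 4 stretches. Of the other matched members, Fzd7, which fell, held CTTTGTT once, and Fzd4 held none of the 3. Fzd8 was not searched. The gene that rose and the gene that fell furthest thus had stretches of like base composition. Such matches describe letters in a window and no binding.

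Fzd6, the receptor of hair orientation, stood at 16.2, 14 and 19.2 TPM in MOD 1 to 3, against 36.5, 24.7 and 28.5 TPM in CON 1 to 3. CON 2 was the lowest control and CON 1 the highest. Fzd6 fell 1.82-fold in mean TPM (log2 difference -0.82, SE 0.19, limma adjusted p = 0.013). Its call was lost under median-of-ratios scaling (-0.48, adjusted p = 0.10), under quantile normalization (-0.47, adjusted p = 0.10) and with a term for H2-Ea (-0.57, adjusted p = 0.13), and the adjusted p ran between 0.0105 and 0.13 over the alternatives. Fzd3, which acts with Fzd6 in planar polarity and guides growing axons, was far lower, at 0.74, 1.07 and 0.83 TPM in MOD and 3.18, 2.95 and 2.19 TPM in CON. The groups were apart, and Fzd3 fell 3.15-fold in mean TPM (log2 difference -0.999, SE 0.18, limma adjusted p = 0.0056). On the log2(TPM + 1) scale the change of such low genes is understated.

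**Figure D3:**
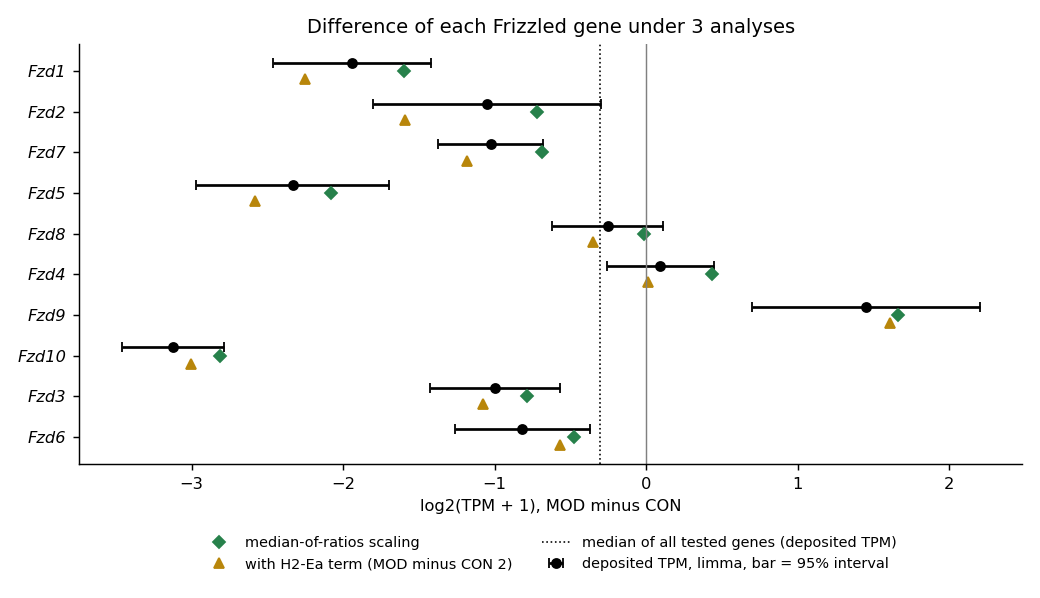
Difference of each Frizzled gene on the log2(TPM + 1) scale, MOD minus CON, from the deposited TPM with 95% intervals (black), after median-of-ratios scaling (green) and with the H2-Ea term (gold); the dotted line is the median of all tested genes. Fzd10, Fzd5 and Fzd1 lie furthest to the left and Fzd9 furthest to the right in all 3 analyses, and Fzd6 comes nearest to the dotted line among the genes that fell.

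Gene structure and shared sequence were read from GENCODE M21. Fzd1, Fzd2, Fzd7, Fzd8, Fzd9 and Fzd10 are annotated with 1 exon, Fzd4 and Fzd5 with 2, and Fzd3 and Fzd6 with up to 7. The 1-exon genes held the largest fall (Fzd10), the rise (Fzd9) and a member that did not pass (Fzd8). No stretch of 50 bases was shared between any pair of members, so reads of that length match 1 member at most. Outside the family, 16.4% of Fzd5's 50-base stretches lay in Gm38058 and 2.12% of Fzd6's in Gm26704, its opposite-strand neighbour listed at 0.07 to 0.16 TPM in MOD and 0.11 to 0.25 TPM in CON. For Fzd3 and Fzd4 the share was 0.094 and 0.15%.

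Genes that work beside the receptors were mostly lower too. The 7 lists held 83 genes, of which 72 were tested, and 49 fell (68.1%) and 3 rose (4.17%), with a median difference of -0.87, against 36.1% and 12.5% of all tested genes and their median of -0.31. Under median-of-ratios scaling 34 fell (47.2%) and 5 rose (6.94%), against 18.7% and 20.2% of all genes. With the H2-Ea term 35 fell (48.6%) and 0 rose by limma (1 at an unadjusted p below 0.05), against 17.9% and 4.35%. Among 9 co-receptors and partners 4 fell (44.4%) and 1 rose (11.1%), near the shares of all genes, with a median of -0.58, and with the H2-Ea term 2 fell and 0 rose by limma (0 at an unadjusted p below 0.05). Ptk7 (log2 difference -1.71) and Ror2 (-1.57), receptors for Wnt signals without beta-catenin, and Ryk (-0.77), a Wnt-binding kinase-like receptor, fell. Tspan12, the tetraspanin that helps Fzd4 respond to Norrin, rose with no overlap of groups, at 13.3, 15.5 and 9.80 TPM in MOD against 8.01, 7.99 and 7.89 TPM in CON (0.61, limma adjusted p = 0.032). The Tspan12 call was lost without any of the CON libraries (adjusted p = 0.073, 0.067 and 0.061 without CON 1, 2 and 3), without MOD 1 (0.10) or MOD 2 (0.11) and without the filter on low values (0.066), and its adjusted p reached 0.15 over the alternatives. The H2-Ea term ended the calls of Ptk7 (log2 difference -1.70), Ror2 (-1.70), Tspan12 (0.60) and Ndp (-1.49).

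Genes that set how long Frizzled proteins stay at the surface fell in 7 of 9 cases (77.8%, against 36.1% of all genes; 0 rose by limma, also at an unadjusted p below 0.05; median -1.01). Under median-of-ratios scaling 4 fell, and 4 fell without MOD 1. Rnf43, a ubiquitin ligase that removes Frizzled receptors, stood at 1.79, 1.83 and 2.82 TPM in MOD against 10.2, 10.4 and 11.1 TPM in CON (log2 difference -1.89, limma adjusted p = 0.0011). Lgr5, a receptor of R-spondins and a stem cell marker of the follicle, stood at 1.77, 1.61 and 2.86 TPM in MOD against 16.0, 16.1 and 9.31 TPM in CON (-2.25). The R-spondin gene Rspo2, whose product keeps Rnf43 and Znrf3 away from Frizzled receptors, was at 0.08, 0.24 and 0.49 TPM in MOD against 1.84, 2.33 and 3.39 TPM in CON (-1.46), and met the filter through CON alone. Of the other R-spondin genes, named after their values were seen, Rspo3 fell (-0.89, limma adjusted p = 0.024). It stood at 0.99, 0.91 and 2.08 TPM in MOD against 2.64, 3.02 and 4.12 TPM in CON. The Rspo3 call held in 8 of 14 alternatives. It ended when H2-Ea was a term (-0.82) and when libraries were scaled by median of ratios (-0.66, adjusted p = 0.072). Rspo1 (-1.01, limma adjusted p = 0.099) and Rspo4 (-0.35, adjusted p = 0.46) overlapped between the groups and were not called.

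Of 16 signal transducers 13 fell (81.2%, against 36.1% of all genes) and 0 rose by limma (0 at an unadjusted p below 0.05; median -0.80), and 7 fell and 1 rose under median-of-ratios scaling. Lef1, the beta-catenin partner of the hair matrix, fell furthest, to 1.22, 1.71 and 5.14 TPM in MOD against 48.3, 37.5 and 62.3 TPM in CON (log2 difference -3.89, limma adjusted p = 0.0013). Its relative Tcf7 (-1.85; adjusted p = 0.14 with the H2-Ea term) and the Dishevelled gene Dvl2 (-1.44) fell. Of 11 tested planar polarity genes 8 fell (72.7%) and 0 rose by limma (0 at an unadjusted p below 0.05), 8 fell and 1 rose under median-of-ratios scaling, with a median of -1.47. Vangl2 (-2.34), the membrane partner of Frizzled receptors across cell borders, and the cadherins Celsr1 (-2.33) and Celsr2 (-2.07) fell by more than Fzd6 or Fzd3, a difference that was not tested. Celsr1 stood at 3.74, 3.97 and 5.37 TPM in MOD against 28.8, 23.0 and 25.8 TPM in CON.

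Of 14 tested ligand genes 9 fell (64.3%) and 1 rose (7.14%), against 36.1% and 12.5% of all genes (median -1.09). Wnt10b (-2.97) and Wnt11 (-2.69) fell furthest, with Wnt5a (-2.01), a ligand of Ror2, while Wnt16 rose (0.88; adjusted p = 0.089 with the H2-Ea term). Of 8 tested genes whose products carry a Frizzled-type domain outside the family 3 fell (37.5%) and 1 rose (12.5%), shares and a median (-0.31) at those of all genes. Smo, the Hedgehog transducer (-1.47), Corin, a protease of the dermal papilla (-2.02), and Sfrp1, a secreted Wnt inhibitor (-1.36), fell, and the secreted inhibitor gene Sfrp5 rose (0.94). The Sfrp1 call ended on leaving out CON 1 (adjusted p = 0.057), CON 2 (0.051), MOD 1 (0.063) or MOD 3 (0.054), under median-of-ratios scaling (0.053) and without the filter on low values (0.051), and the Sfrp5 call without CON 1 (0.075), CON 3 (0.056), MOD 1 (0.077), MOD 2 (0.080) or MOD 3 (0.058) or without the filter (0.069). For Sfrp5 the H2-Ea term gave 0.35 (adjusted p = 0.28). All 6 tested beta-catenin target genes fell and 0 rose by limma (0 at an unadjusted p below 0.05; median -2.14; 5 fell under median-of-ratios scaling). With the H2-Ea term 3 fell, the calls lost being those of Axin2 (-1.25, adjusted p = 0.11), Nkd1 (-0.75, 0.33) and Nkd2 (-2.33, 0.072), and the Nkd1 groups overlapped. With Lef1, which is also among them, Nkd2 (-2.27) and Notum (-2.17) fell furthest.

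**Figure D4:**
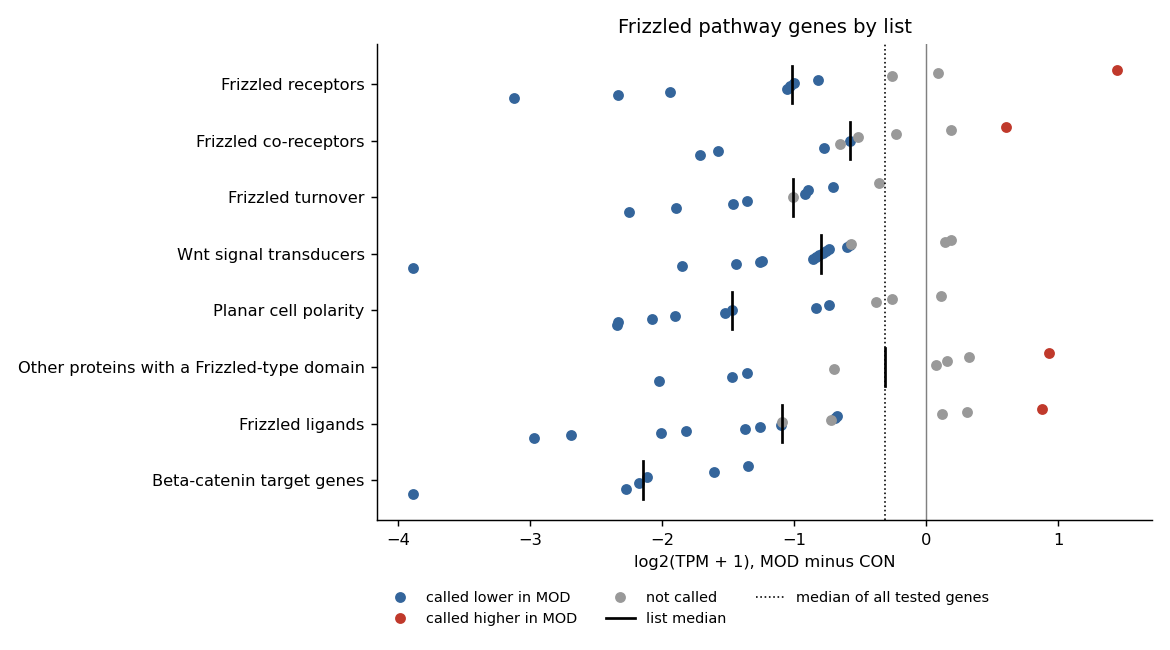
Difference of each tested gene on the log2(TPM + 1) scale, MOD minus CON, by list, coloured by call, with the list's median (black bar) and the median of all tested genes (dotted). The beta-catenin target genes lie furthest left, all below -1.3, and the few red points are Fzd9, Tspan12, Sfrp5 and Wnt16.

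Markers of several cell types moved in the same libraries. The 7 hair shaft and inner root sheath markers found, of 8, all fell, with none at 0 in all libraries of a group. Their summed level was 3.23 to 9.90 TPM in MOD against 2377 to 12850 TPM in CON. Krt71, Krt25, Krt27, Krt35 and Tchh were below 1 TPM in every MOD library. These genes met the filter through CON alone, so a rise could hardly have been called for them. The follicle stem cell and outer root sheath list summed to 502 to 828 TPM in MOD against 1546 to 1766 TPM in CON (5 of 8 fell and 2 rose), and melanocyte markers to 41.5 to 194 TPM against 455 to 928 TPM (8 of 8 fell). Their part in the falls of Fzd10, Fzd5, Fzd1 and the other members was not tested. Basal keratinocyte markers summed to 4717 to 4988 TPM in MOD and 2638 to 4144 TPM in CON (1 of 7 rose and 2 fell). Suprabasal markers overlapped, at 2252 to 3314 and 926 to 5502 TPM, and 1 of 7 fell. These counts stand beside 36.1% of all tested genes called lower and 12.5% called higher. With the H2-Ea term 3 of 8 melanocyte markers and 1 of 7 basal keratinocyte markers fell, and no follicle stem cell or basal keratinocyte marker rose by limma (0 and 1 at an unadjusted p below 0.05).

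Skeletal muscle markers were higher in MOD, where Fzd9 was higher too. They summed to 27880, 18290 and 22230 TPM in MOD 1 to 3, against 2718, 4252 and 9395 TPM in CON 1 to 3 (7 of 8 rose, none at 0; 4 rose with the H2-Ea term, where the median was 2.32). Fzd9 had its highest MOD value in the MOD library with the most muscle RNA, MOD 1, and its highest control value in CON 3, the control with the most. The other MOD libraries were in the opposite order for the 2 measures. The part of muscle in the rise of Fzd9 was not tested. Blood endothelial markers summed to 325 to 406 TPM in MOD against 94.5 to 127 TPM in CON (7 of 8 rose, none at 0). Of the members known from vessels, Fzd4 (retina) overlapped between the groups and Fzd5 (yolk sac) fell. Macrophage markers (7 of 8 rose, but 2 with the H2-Ea term, where the median was 0.91 in place of 1.68) summed to 1166 to 1547 TPM in MOD against 161 to 592 TPM in CON, and neutrophil markers (7 of 7 tested rose, 5 with the H2-Ea term, Retnlg at 0 in all controls) to 2500 to 7762 against 27.2 to 82.0 TPM. Retnlg, at 0 in all controls, could meet the filter through MOD alone. T cell markers (2 of 7 tested rose) summed to 35.8 to 52.8 TPM in MOD and 19.2 to 25.7 TPM in CON. Smooth muscle and pericyte markers (2 rose, 1 fell) summed to 1182 to 1497 and 720 to 966 TPM, fibroblast markers (1 rose) to 4893 to 7078 and 3573 to 5486 TPM, adipocyte markers (0 called, 1 at an unadjusted p below 0.05) to 4344 to 9957 and 4482 to 5378 TPM, and Schwann cell markers (1 rose) to 338 to 539 and 216 to 347 TPM, MOD before CON in each. With the H2-Ea term 1 T cell and 1 smooth muscle marker rose, and by limma no fibroblast or Schwann cell marker (0 at an unadjusted p below 0.05) and 0 smooth muscle markers fell (1 at an unadjusted p below 0.05). Counts from the deposited TPM without the term stand beside 12.5% of all tested genes called higher and 36.1% called lower. Under median-of-ratios scaling 5 of 8 Schwann cell and 3 of 8 smooth muscle markers rose. So did 2 of 8 fibroblast, 2 of 8 adipocyte and 2 of 7 basal keratinocyte markers, near the 20.2% of all genes called higher. Of the basal keratinocyte markers 1 of 7 fell, near the 18.7% of all genes called lower.

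**Figure D5:**
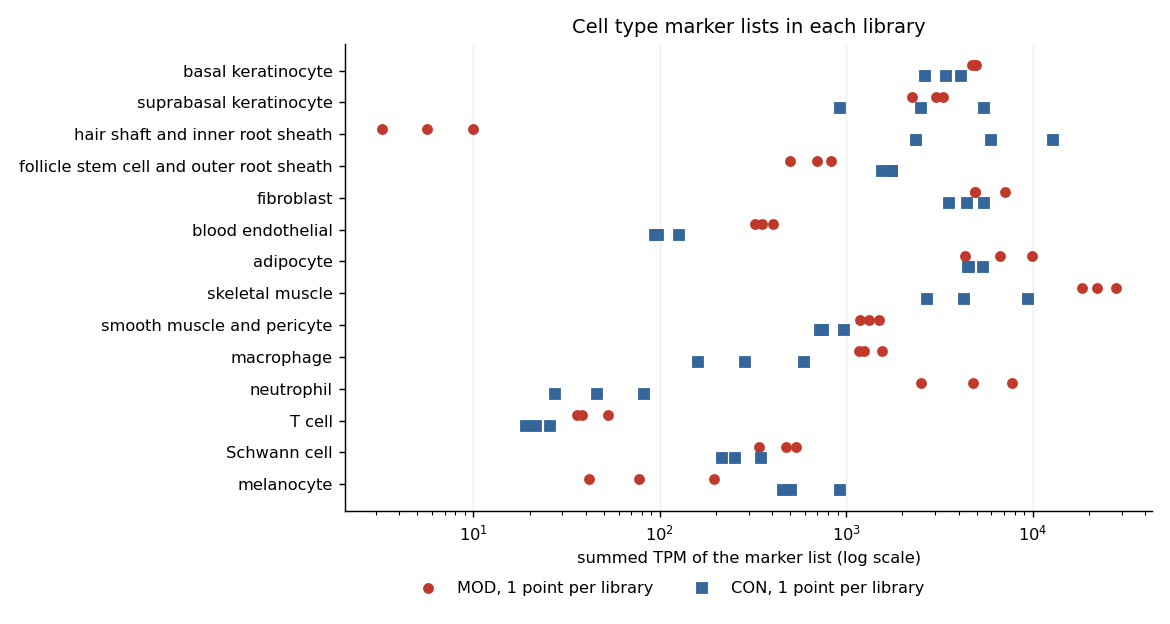
Summed TPM of each cell type marker list on a log axis, 1 point per library, MOD (red circles) above CON (blue squares). Hair shaft and inner root sheath markers lie far lower in MOD, at 3.23 to 9.90 against 2377 to 12850 TPM, whereas skeletal muscle, blood endothelial, macrophage and neutrophil markers lie higher.

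The genes whose profile over the 6 libraries lay nearest to that of Fzd10 and Fzd9 were found by Euclidean distance between log2(TPM + 1) values centred on each gene's mean, among 13777 genes without the predicted ones. Nearest to Fzd10 were Sox21, a transcription factor gene (distance 0.29), Myh14, a non-muscle myosin heavy chain gene (0.36), and Paqr5, a membrane progestin receptor gene (0.42). Sox21 stood at 3.06, 3.36 and 3.29 TPM in MOD against 34.3, 30.2 and 32.6 TPM in CON, levels close to those of Fzd10. Nearest to Fzd9 were Asb14 (0.24), Sync, which encodes the muscle filament protein syncoilin (0.31), and Rilp, an effector of lysosome transport (0.32). Sync stood at 10.0, 6.02 and 5.97 TPM in MOD against 1.26, 2.06 and 2.80 TPM in CON. These distances describe likeness over 6 libraries that fall into 2 groups.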

How the data were processed

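Total RNA was extracted with TRIzol, treated with DNase I and made into libraries with a SMARTER mRNA-Seq kit, per the labels' protocols. The authors deposited TPM values per gene. The submitters' processing notes name the build GRCm39. For aligner, annotation and quantifier: not given in the sources used here. Deposited columns were assigned to libraries by the labels, so that CON 2 and CON 3 are the columns numbered 3 and 4. Nothing in the labels says whether each library is a separate animal. The p-values therefore measure only how these samples vary, which may be technical.

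The 15323 genes that reached 1 TPM in 3 or more of the 6 libraries were analysed as log2(TPM + 1) in limma 3.58.1 under R 4.3.3 (lmFit, eBayes with a trend, two-sided, Benjamini-Hochberg over all tested genes, threshold 0.05). The fit was tested on simulated data. Frizzled genes, lists, promoter motifs and alternatives were chosen with earlier results of these data known. Named were the 10 members, per list the 3 called genes with the largest change and the largest in the other direction, the 3 genes nearest in profile to the largest rise and fall, and abundant markers; other genes were chosen after their values were seen. Alternatives were other pseudocounts, filters and scalings, a replicate block, a term for libraries with H2-Ea above 15 TPM, and leaving out each library.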

Additional observations from a re-analysis of the deposited data

How the results depend on the processing

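Over 15 alternatives the 10 members kept their direction or stayed without a call, and 136 of 147 differences stayed on the same side of the threshold. The 11 others were lost calls of Fzd2 (7, with those above also without the filter, adjusted p = 0.075, under quantile normalization, 0.084, and without the 20 most abundant genes, 0.056), Fzd6 (3) and Fzd9 (1). The count of members called lower lay between 5 and 7. That of members called higher was 0 by limma in place of 1 with the H2-Ea term (1 at an unadjusted p below 0.05), and 0 when at least 5 TPM was required (0 at an unadjusted p below 0.05), where 7 members were tested and Fzd9 was not. Of all genes, 1914 were called higher and 5538 lower; median-of-ratios scaling gave 3097 and 2868 (51.9% higher, against 25.7%), quantile normalization 2818 and 3177 (47.0%), leaving out the 20 most abundant genes 2314 and 4211 (35.5%), and the H2-Ea term 667 and 2747. Leaving out 1 library in turn gave 3559 (without MOD 1) to 5487 lower. Of the pathway genes 3 were called higher, but 5 under median-of-ratios scaling and 5 under quantile normalization, 1 without the filter, 0 with the H2-Ea term and 1 to 2 with 1 library left out (1 without CON 1, CON 3, MOD 1 or MOD 2). The cause was not tested. The deviations of same-numbered libraries from the group means correlated at 0.0046, 0.069 and 0.066, and 4 of 6 libraries correlated best with their own number. Whether such libraries share more than a number cannot be told from these values. With the replicate block 1 member was called higher and 7 lower, and of all genes 1914 higher and 5343 lower. The differences in the members' shares moved by less than 1 SD, taken from the group with the larger SD, with any library left out. That of Fzd2 (0.96 percentage points) changed sign without CON 1 (-0.17) and without MOD 3 (-0.92). Depth is unknown, so how far it limits the low members Fzd3, Fzd5, Fzd8 and Fzd9 cannot be given.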
